A study of Mus musculus with 6 samples.

Results

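The FOXO transcription factors Foxo1, Foxo3 and Foxo4 and 7 of their known target genes were followed in brown adipose tissue, the heat-producing fat of small mammals. The targets were Depp1, Sesn1, Sesn3, Txnip, Pik3ip1, Fbxo32 and Trib1. The 10 genes were taken by symbol from a count table of 45777 genes and were chosen from knowledge of the pathway with the Rb2-against-PBS results of these same libraries in view. Their differences between the groups are therefore a description, given with no p, and calls among them support nothing. The tissue came from wild-type male C57Bl6/J mice given ginsenoside Rb2, a saponin of ginseng, or phosphate-buffered saline (PBS) by intraperitoneal injection for 2 weeks, with 3 mice in each group. The sources used here state no dose, age, feeding state or hour of tissue collection. Libraries are called Rb2 1, 3 and 4 and PBS 1, 2 and 4 after the table's columns. The sources used here do not say whether a shared number marks a pair, and the main test used no pairing.

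FOXO proteins are forkhead transcription factors whose activity is set mainly by where the protein is. Insulin acts through PI3K and the kinase AKT to phosphorylate them, 14-3-3 proteins then hold them in the cytoplasm, and when insulin is low, as in fasting, they enter the nucleus and switch on genes of stress resistance, autophagy, growth restraint and fuel supply. In adipocytes FOXO1 is known to restrain differentiation and to activate the gene of the lipase ATGL. Messenger RNA of the factors says little about the amount of nuclear protein, which was not measured here.

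Total counts per library ran from 83642183 to 92666780, and levels are given as CPM, which scales each gene's count to the library's total after TMM correction, with mean ± SD over 3 libraries. A count of 0 allows up to 3 counts, or 0.0370 CPM in PBS 1, the library with the smallest effective size, which covers counting error only. The brown adipocyte markers summed to between 12282 and 16561 CPM in Rb2 libraries and between 15170 and 16386 CPM in PBS libraries, and none of the 10 was at 0 anywhere. Fabp4 was the most abundant of them and a large part of the sum, with 7166 ± 1160 CPM with Rb2 and 7707 ± 381 CPM with PBS. Of these 10 markers 2 fell, Prdm16 (log2 fold change -1.13, edgeR adjusted p = 0.00584) and Elovl3 (-1.74, edgeR adjusted p = 0.0214). Skeletal muscle markers varied most: their sum was 1.05, 446 and 262 CPM in Rb2 1, 3 and 4, and 2376, 7150 and 8.07 CPM in PBS 1, 2 and 4. Of these 15 markers 9 were at 0 in at least 1 library, and none of the 15 passed the test. Of the 12 endothelial markers 6 fell, and their sum ran from 900 to 1349 CPM in Rb2 libraries and from 1644 to 1863 CPM in PBS libraries, with none at 0. Of 10 macrophage markers 4 fell (sums of 78.3 to 109 CPM with Rb2 and 119 to 151 CPM with PBS), and none of the 8 fibroblast or 10 lymphocyte markers passed. Over all genes tested 5.11% fell.

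The DNA that FOXO proteins bind holds the forkhead core GTAAACA, and a related insulin response element holds CAAAACA. Both strands of the 300 bases around gene starts (250 before and 50 after, RefSeq sequences of GRCm38.p6) were searched for these letters. Such windows were at hand for 7 of the 10 genes: Foxo1, Foxo3, Depp1, Sesn1 (2 starts), Sesn3, Txnip and Pik3ip1. The forkhead core was found in 2 of them, Txnip and 1 of the starts of Sesn1, and CAAAACA in none. Among 32817 promoter windows 3.65% held GTAAACA and 6.29% held CAAAACA on either strand. The windows of Txnip and of 1 start of Sesn1 are shown because they held the forkhead core, so their matches follow from that choice. The Depp1 window was added after its values were seen. Any match is in capitals. Each window shown runs 5′ to 3′ on the plus strand and stops 30 bases into the transcript.

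Txnip, chr3:96557707-96557986, GTAAACA starting 121 bases before the gene start: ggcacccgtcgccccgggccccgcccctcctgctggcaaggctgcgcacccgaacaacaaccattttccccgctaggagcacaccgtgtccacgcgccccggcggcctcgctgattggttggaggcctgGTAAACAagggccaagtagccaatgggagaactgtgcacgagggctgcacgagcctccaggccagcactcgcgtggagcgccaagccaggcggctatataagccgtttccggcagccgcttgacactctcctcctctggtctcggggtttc
Sesn1, chr10:41810324-41810603, the reverse complement TGTTTAC starting 22 bases after the gene start: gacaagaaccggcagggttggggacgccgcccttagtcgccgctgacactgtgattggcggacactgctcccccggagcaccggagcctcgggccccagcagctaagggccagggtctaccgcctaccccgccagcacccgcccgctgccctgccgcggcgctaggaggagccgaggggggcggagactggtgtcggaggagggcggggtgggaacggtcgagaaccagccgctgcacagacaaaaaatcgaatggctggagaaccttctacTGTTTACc
Depp1, chr6:116650434-116650713, no match: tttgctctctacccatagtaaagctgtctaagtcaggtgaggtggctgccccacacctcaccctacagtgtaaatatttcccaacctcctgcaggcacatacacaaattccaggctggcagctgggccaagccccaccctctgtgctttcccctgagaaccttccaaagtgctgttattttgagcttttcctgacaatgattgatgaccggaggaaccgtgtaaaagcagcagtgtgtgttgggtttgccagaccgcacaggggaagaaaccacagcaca

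A match is no more than the presence of these letters, and a window without one says only that they are not in that window.

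Of the 10 genes, all of which entered the test, 1 fell and 1 rose after Rb2 at an adjusted p under 0.05 in edgeR's quasi-likelihood test, where 10.4% of all 16707 genes tested were called, 5.33% higher and 5.11% lower. With library size alone as scaling the split over all genes was 492 higher and 779 lower, and with an offset fitted to GC and length 804 and 502, against 890 and 853 in the fit used here. The groups did not overlap for 3 of the 10 genes, Depp1, Sesn1 and Pik3ip1, where 35.8% of all genes tested did not overlap. The median log2 fold change of the 10 was 0.19, against -0.01 over all genes tested. That median was 0.03 without Rb2 1, 0.10 without PBS 4, 0.31 without Rb2 4 and 0.10 with library size alone. The 10 did not move as a block: 6 fold changes were above 0 and 4 below, from -2.70 for Depp1 to 1.22 for Pik3ip1. Of the 3 factors, 1 was above 0 and 2 below. Of the 7 targets, 5 were above 0 (median of the 7, 0.30) and 2 below, Depp1 and Fbxo32, the latter at -0.01 ± 0.60 SE.

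**Figure D1:**
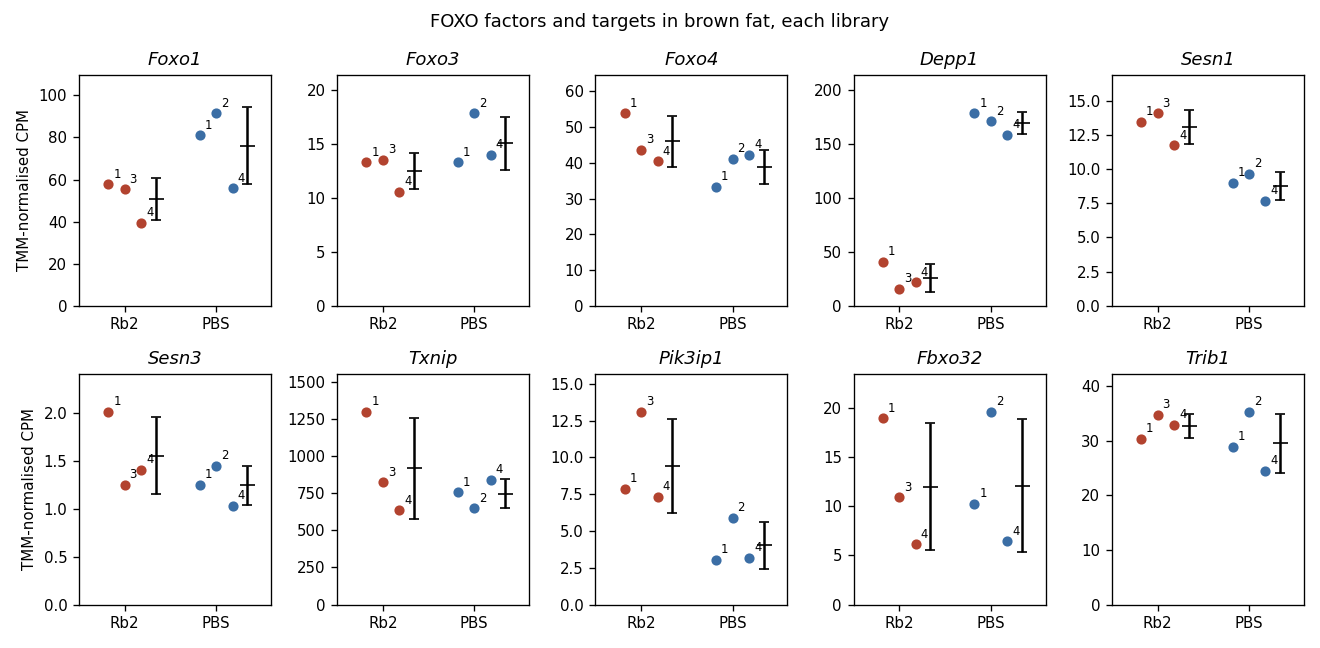
TMM-normalised CPM of the 10 genes (y axes, linear from 0) in each library, Rb2 left and PBS right, with the library number beside each point and the mean ± SD of 3 libraries as a black bar. Depp1 is far lower in the Rb2 libraries, Sesn1 and Pik3ip1 are higher in them without overlap, and the other genes overlap.

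Among the factors, Foxo1, the main FOXO gene studied in insulin-responsive tissues (gene 56458; chromosome 3, 52268337 to 52350109 in GRCm38.p6), was at 57.8, 55.3 and 39.4 CPM in Rb2 1, 3 and 4 and at 81.1, 91.5 and 55.9 CPM in PBS 1, 2 and 4. PBS 4 lay inside the Rb2 range, so the groups overlapped. The means were 50.8 ± 9.96 CPM with Rb2 and 76.2 ± 18.3 CPM with PBS, a log2 fold change of -0.58 ± 0.21 SE that did not pass the threshold. It passed without PBS 4 (log2 fold change -0.78) and in the DESeq2 Wald test (-0.59), and it was -0.14 with PBS 1 and PBS 2 both left out.

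Foxo3, a relative tied to stress resistance and autophagy (gene 56484; chromosome 10, 42181845 to 42276695), had 13.3, 13.6 and 10.6 CPM in Rb2 1, 3 and 4, against 13.3, 17.9 and 14.03 CPM in PBS 1, 2 and 4. Foxo4, the X-linked factor (gene 54601; 101254261 to 101260873), had 53.9, 43.7 and 40.4 CPM in the Rb2 libraries, against 33.3, 41.1 and 42.2 CPM in the PBS libraries. Neither passed the threshold (log2 fold changes -0.27 ± 0.16 SE and 0.24 ± 0.15 SE), and both overlapped between the groups. Per kilobase of the longest annotated transcript, Foxo4 was the most abundant of these factors, with 14.5 ± 2.22 CPM per kb with Rb2 and 12.3 ± 1.53 with PBS. Foxo1 followed with 5.87 ± 1.15 and 8.79 ± 2.11 CPM per kb, and Foxo3 was lowest with 1.82 ± 0.241 and 2.202 ± 0.357 CPM per kb. That order held within each of the 6 libraries, although the range of Foxo1 in PBS libraries (up to 10.6 CPM per kb) met that of Foxo4 (from 10.5). Foxo6, the remaining factor of the family, was at 0.950 ± 0.867 CPM with Rb2 and 0.524 ± 0.371 CPM with PBS.

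Depp1, a regulator of autophagy whose gene FOXO proteins activate and insulin represses (gene 213393; chromosome 6, 116650684 to 116652847), moved most among the 10. Its level was 40.7, 16.0 and 21.6 CPM in Rb2 1, 3 and 4, against 178, 171 and 159 CPM in PBS 1, 2 and 4. Every Rb2 library was far below every PBS library, and the PBS libraries lay within 1.13-fold of each other while the Rb2 libraries spread over 2.55-fold. The means of 26.1 ± 12.9 CPM with Rb2 and 169 ± 10.1 CPM with PBS gave a ratio of 0.154 and a log2 fold change of -2.70 ± 0.34 SE. It ranked 184 from the lowest among 16707 fold changes. The call was kept with any 1 library left out (-3.17 to -2.44), with the muscle markers as a covariate (-3.0) and with an offset fitted to GC and length (-2.35). It was lost with PBS 1 and PBS 2 both left out (-2.60), a fit with 1 PBS library in which no gene of the whole table was called and 2063 had an unadjusted p under 0.05.

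Depp1 lies entirely within the annotated span of Rassf4, over 2164 bases. Rassf4 had 9.12 ± 1.33 CPM with Rb2 and 7.64 ± 1.27 CPM with PBS, far below Depp1 in the PBS libraries, and did not pass the threshold (log2 fold change 0.26 ± 0.17 SE). The sources used here do not say whether reads were counted by strand. The endothelial marker sum, given above, was also lower in the Rb2 libraries with no overlap. So were the macrophage sum, given above, and the fibroblast sum (496 to 699 CPM with Rb2 and 703 to 928 CPM with PBS). The lymphocyte, brown adipocyte and skeletal muscle sums overlapped. The part of any of these cell types in the Depp1 difference was not tested. In whole tissue, fewer cells of a type and less RNA per cell cannot be told apart.

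**Figure D2:**
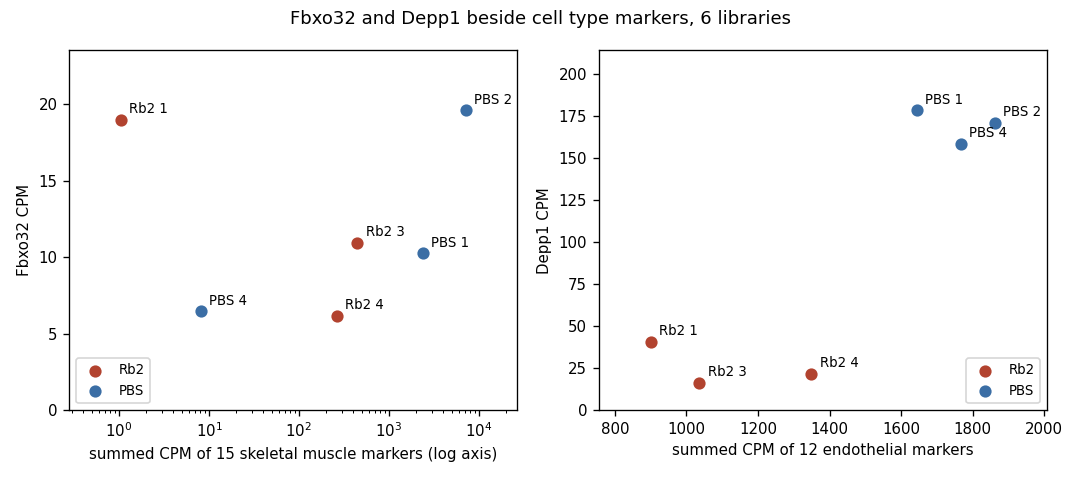
Left, Fbxo32 in CPM against the summed CPM of 15 skeletal muscle markers (log axis); right, Depp1 in CPM against the summed CPM of 12 endothelial markers (linear axis), with 1 point per library, Rb2 red and PBS blue. Fbxo32 is high in PBS 2, which has the most muscle transcripts, and in Rb2 1, which has the fewest, and Depp1 is below 41 CPM in every Rb2 library.

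The sestrins are stress-induced proteins that restrain the growth kinase mTORC1. Sesn1 (gene 140742; chromosome 10, 41810574 to 41908436) was at 13.4, 14.1 and 11.7 CPM in Rb2 1, 3 and 4, against 8.98, 9.66 and 7.69 CPM in PBS 1, 2 and 4. All Rb2 values were above all PBS values, by a ratio of means of 1.49, and the gene rose at a log2 fold change of 0.58 ± 0.14 SE. The direction was the same in all 16 alternatives run (0.47 to 0.77). Its call was lost with Rb2 1, Rb2 3, PBS 1, PBS 2 or PBS 4 left out (0.47 to 0.65) and with library size alone as scaling (0.49), and kept without Rb2 4 (0.64).

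Sesn3 (gene 75747; chromosome 9, 14276301 to 14326134) was the scarcest of the 10, with 170, 103 and 130 counts in Rb2 1, 3 and 4 and 101, 140 and 101 counts in PBS 1, 2 and 4. Its 1.55 ± 0.401 CPM with Rb2 and 1.24 ± 0.208 CPM with PBS overlapped, and Rb2 1 carried the highest value. Its log2 fold change of 0.32 ± 0.28 SE was 0.10 without Rb2 1. Sesn2, the third sestrin, ran the other way without passing the threshold: 7.06, 2.0 and 3.58 CPM in Rb2 1, 3 and 4, against 7.10, 6.54 and 5.64 CPM in PBS 1, 2 and 4.

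Txnip codes for an arrestin-like protein that binds thioredoxin and restrains glucose uptake, and its gene answers to glucose as well as to FOXO (gene 56338; chromosome 3, 96557957 to 96561857). It was by far the most abundant of the 10, also per kilobase (325 ± 121 CPM per kb with Rb2 and 265 ± 34.2 with PBS). Its level was 1297, 825 and 634 CPM in Rb2 1, 3 and 4, against 755, 648 and 841 CPM in PBS 1, 2 and 4. Rb2 1 stood above all other libraries while Rb2 4 was the lowest of the 6. The log2 fold change of 0.30 ± 0.25 SE did not pass, and it was -0.03 without Rb2 1. Txnip overlaps the long noncoding gene Gm15441 along its whole length, which had at most 0.473 CPM in any library.

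Arrdc4, the closest companion of Txnip in structure and in its response to glucose, fell to 5.27, 7.14 and 6.27 CPM in Rb2 1, 3 and 4, against 17.5, 12.5 and 13.4 CPM in PBS 1, 2 and 4 (log2 fold change -1.22 ± 0.18 SE, edgeR adjusted p = 0.00673). It was called with any 1 library left out. Whether its change differed from that of Txnip was not tested. Of 10 close relatives of the members that were tested, Arrdc4 was the only one past the threshold. Over all genes tested 10.4% were called. The groups did not overlap for 3 of the 10 relatives, where 35.8% of all genes tested did not overlap. Besides Arrdc4 these were Trib2 (log2 fold change -0.58) and Arrdc1 (-0.43). Trib3 (0.46), Fbxo30 (0.22), Arrdc2 (0.05), Fbxo25 (0.01), Arrdc3 (-0.01), Sesn2 (-0.61) and Foxo6 (0.86) overlapped.

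Pik3ip1 is a membrane protein that holds PI3K back, upstream of AKT and FOXO (gene 216505; chromosome 11, 3319241 to 3342971). It had 7.86, 13.1 and 7.33 CPM in Rb2 1, 3 and 4, against 3.05, 5.88 and 3.17 CPM in PBS 1, 2 and 4. Every Rb2 value was above every PBS value, with Rb2 3 and PBS 2 standing out in their groups. The means of 9.43 ± 3.18 CPM with Rb2 and 4.03 ± 1.605 CPM with PBS gave a ratio of 2.34 and a log2 fold change of 1.22 ± 0.33 SE, just outside the threshold. Of 16 alternatives 6 put it past the threshold, among them leaving out PBS 2 (1.6), the muscle covariate (1.44) and the GC and length offset (1.38).

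Fbxo32, which codes for the ubiquitin ligase atrogin-1 of muscle wasting (gene 67731; chromosome 15, 58175879 to 58214892), varied over 3.09-fold within the Rb2 group and 3.04-fold within the PBS group. It was at 19.0, 10.9 and 6.14 CPM in Rb2 1, 3 and 4, against 10.2, 19.6 and 6.45 CPM in PBS 1, 2 and 4. The highest PBS value was in the library with most muscle transcripts, while Rb2 1, which had the least of them, was nearly as high. The part of muscle tissue in these values was not tested. The log2 fold change of -0.01 ± 0.60 SE left differences of either sign within its error, and it was 0.90 with PBS 1 and PBS 2 both left out and 0.52 without PBS 2 alone. Trim63, the other well-known ligase of muscle wasting, named here after its values were seen, had 0, 0.69 and 0.22 CPM in Rb2 1, 3 and 4, against 2.29, 7.80 and 0 CPM in PBS 1, 2 and 4, the same order as the muscle markers except that Rb2 1 and PBS 4 tie at 0. Its fitted log2 fold change of -3.48 ± 2.29 SE did not pass and turned positive in some alternatives (0.82 with the muscle covariate).

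Trib1, a pseudokinase that helps to degrade the transcription factor C/EBPα (gene 211770; chromosome 15, 59648654 to 59657099), had 30.3, 34.7 and 32.9 CPM in Rb2 1, 3 and 4, against 28.8, 35.2 and 24.4 CPM in PBS 1, 2 and 4. The groups overlapped and the log2 fold change of 0.15 ± 0.15 SE did not pass.

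**Figure D3:**
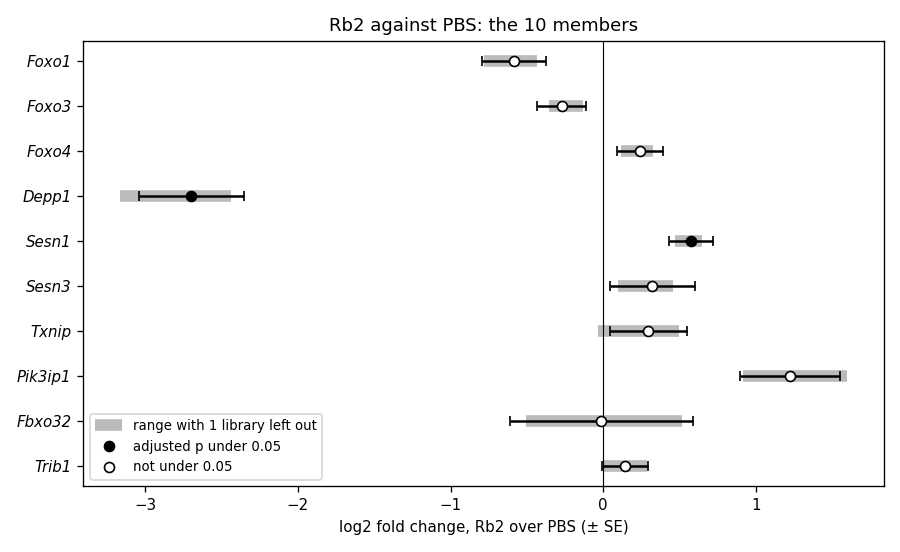
Log2 fold change, Rb2 over PBS, of each of the 10 genes (points with SE bars, filled where the adjusted p was under 0.05) and its range when 1 library was left out (grey). Depp1 lies near -2.7 and Sesn1 near 0.6, and the grey ranges of Txnip and Fbxo32 cross 0.

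Within each group the highest and lowest libraries were counted over the 10 genes. PBS 2 had the highest PBS value for 7 of the 10 and PBS 4 the lowest for 6. Rb2 4 had the lowest Rb2 value for 7 and the highest for none, while Rb2 1 had the highest for 6. Over all 16707 genes tested, Rb2 4 was the lowest of its group for 5527 and the highest for 6011, and Rb2 1 the highest for 6131. PBS 2 was the highest of its group for 4924 of them and PBS 4 the lowest for 5396. Over the 35 further FOXO targets described below, Rb2 1 was the highest of its group for 18 and Rb2 4 the lowest for 19. The PBS order differed there: PBS 2 was the highest for 8, and PBS 4 the highest for 15 and the lowest for 14. None of these orders was tested. The members that were high in Rb2 1 included Txnip, Sesn3 and Fbxo32, each 0.65 to 0.79 above the PBS mean on the log2 scale, whereas Depp1, although also highest there among Rb2 libraries, was at -2.06 on that scale.

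**Figure D4:**
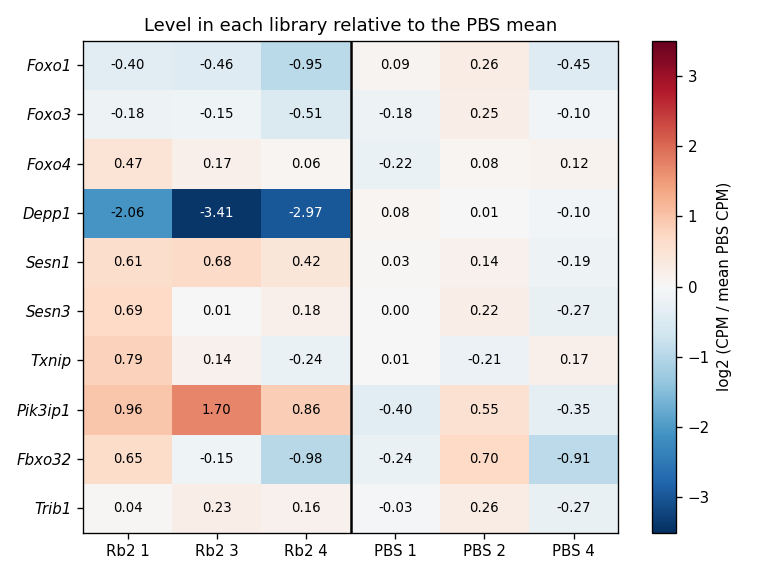
Log2 of the CPM in each library over the mean PBS CPM, for the 10 genes (rows) in Rb2 1, 3 and 4 and PBS 1, 2 and 4 (columns). Depp1 ranges from -3.41 to -2.06 in Rb2 libraries, Sesn1 from 0.42 to 0.68 and Pik3ip1 from 0.86 to 1.70, while Fbxo32 runs from -0.98 to 0.65 within Rb2 libraries.

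Of 38 listed FOXO target genes outside the 10, 35 could be tested, 7 rose and 2 fell. Over all genes tested, 5.33% rose and 5.11% fell. Most did not pass, and 27 of the 35 fold changes were above 0 (median 0.33, against -0.01 over all genes tested). With library size alone as scaling 5 rose and 3 fell. Of the 35, 17 did not overlap between the groups, where 35.8% of all genes tested did not overlap. The list was drawn up from textbook knowledge with earlier results of these libraries known, so it is not independent evidence of a direction.

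The 7 that rose were Bnip3, Gabarapl1, Rbl2, Cdkn1b, Insr, Tnfsf10 and Klf15. Bnip3, a receptor for removing mitochondria, was at 328 ± 35.2 CPM with Rb2 and 172 ± 29.7 CPM with PBS (log2 fold change 0.93 ± 0.17 SE, edgeR adjusted p = 0.0130). Gabarapl1, which builds autophagosomes, was at 175 ± 18.7 CPM with Rb2 and 101 ± 3.27 CPM with PBS (0.79 ± 0.13 SE, edgeR adjusted p = 0.0111). Rbl2, a pocket protein of quiescent cells, had 50.7 ± 13.0 CPM with Rb2 and 26.6 ± 0.321 CPM with PBS (0.93, edgeR adjusted p = 0.0158), and Cdkn1b, the cell cycle inhibitor p27, 27.1 ± 1.48 and 18.9 ± 1.04 CPM (0.52, edgeR adjusted p = 0.0257). Insr, the insulin receptor, had 82.0 ± 15.2 CPM with Rb2 and 50.6 ± 4.0 CPM with PBS (0.70, edgeR adjusted p = 0.0248). Tnfsf10, the death ligand TRAIL (0.80, edgeR adjusted p = 0.0319), and Klf15, a factor of amino acid and lipid use in fasting (43.9 ± 14.5 CPM with Rb2 and 21.2 ± 2.32 CPM with PBS; 1.05, edgeR adjusted p = 0.0329), completed the group.

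The targets that fell were Cdkn1a and S1pr1. Cdkn1a, the inhibitor p21, which many pathways besides FOXO induce, had 61.5, 40.5 and 22.8 CPM in Rb2 1, 3 and 4, against 157, 227 and 146 CPM in PBS 1, 2 and 4 (log2 fold change -2.09 ± 0.38 SE, edgeR adjusted p = 0.0256). S1pr1, a sphingosine phosphate receptor of endothelium and lymphocytes, was at 89.6 ± 7.82 CPM with Rb2 and 207 ± 11.7 CPM with PBS (-1.21 ± 0.13 SE, edgeR adjusted p = 0.00291). Klf2, an endothelial factor named after its values were seen, had 34.4 ± 21.5 CPM with Rb2 and 104 ± 15.2 CPM with PBS and did not pass (-1.6, edgeR adjusted p = 0.0962). Beside them 6 of the 12 endothelial markers fell, and their part in these values was not tested. Ddit4, which restrains mTORC1 under stress, was lower without overlap and did not pass: 20.7, 8.14 and 12.3 CPM in Rb2 1, 3 and 4, against 42.1, 30.8 and 54.1 CPM in PBS 1, 2 and 4 (-1.63, edgeR adjusted p = 0.0542). For this gene 6 of 16 alternatives passed the threshold, among them leaving out Rb2 1, library size alone and the muscle covariate.

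**Figure D5:**
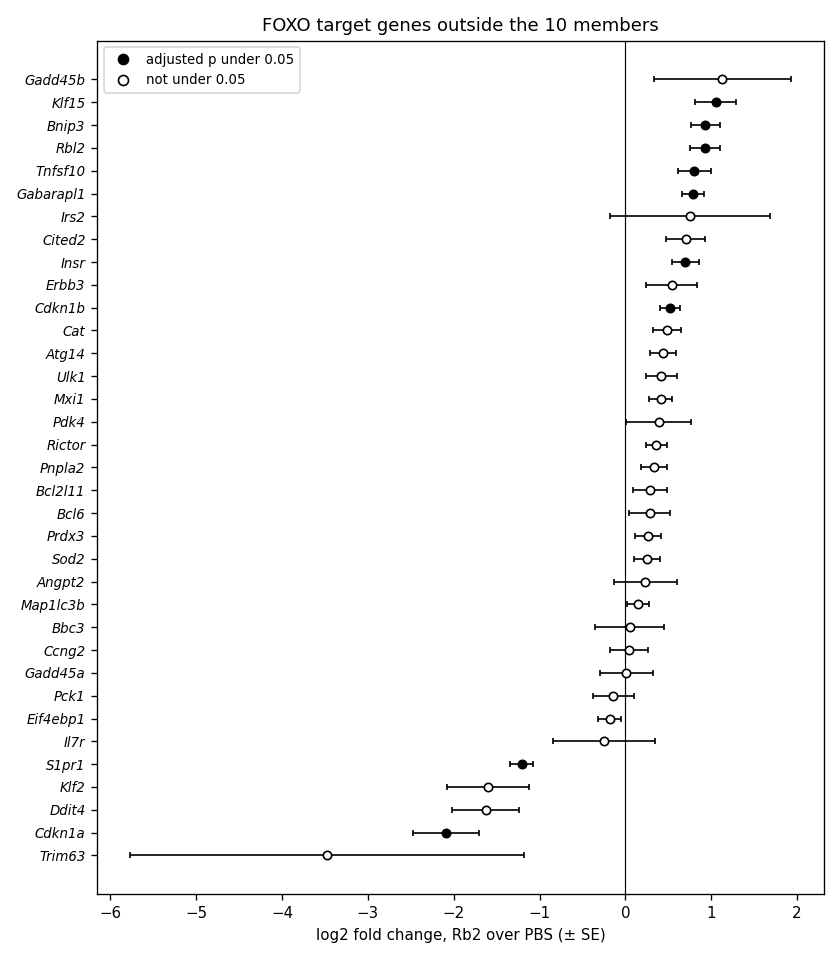
Log2 fold change, Rb2 over PBS, with SE bars for the 35 tested FOXO target genes outside the 10 members, filled where the adjusted p was under 0.05. Most points lie right of 0, with Klf15 the highest of the 7 filled ones there, while Cdkn1a and S1pr1 are the filled points left of 0.

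Irs2, the insulin receptor substrate that FOXO induces, shows how far 1 library could carry a mean. It was at 73.9 CPM in Rb2 1 but 9.46 and 13.6 CPM in Rb2 3 and 4, against 23.0, 20.7 and 13.98 CPM in PBS 1, 2 and 4, and its log2 fold change of 0.75 ± 0.93 SE was -0.73 without Rb2 1. Pik3r1, a PI3K subunit named after its values were seen, had the same outline, with 167 CPM in Rb2 1, 37.1 and 40.6 CPM in Rb2 3 and 4, and 52.9 to 66.7 CPM in PBS libraries. Pdk4, which turns off pyruvate oxidation in fasting, ran from 633 CPM in Rb2 4 to 2002 CPM in Rb2 1, against 1006 to 1079 CPM in PBS libraries, and did not pass (0.39, edgeR adjusted p = 0.524). Cited2 had 10.7 ± 3.71 CPM with Rb2 and 6.57 ± 0.521 CPM with PBS and did not pass either (0.70, edgeR adjusted p = 0.0775).

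The number of further targets called depended on the libraries used. It was 9 with all 6 libraries, 8 without Rb2 1, 3 without Rb2 3, 14 without Rb2 4, 2 without PBS 1, 1 without PBS 2 and 5 without PBS 4. S1pr1 was called with any 1 library left out. Bnip3 was not called without PBS 2, nor Gabarapl1 without PBS 1 or PBS 2, nor Rbl2 and Cdkn1a without Rb2 3, PBS 1 or PBS 2. Insr, Cdkn1b and Klf15 kept their call only without Rb2 4, and Tnfsf10 only without Rb2 1 or Rb2 4.

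Of all genes tested, 5.11% fell and 5.33% rose. Upstream of FOXO, 1 of 18 PI3K, AKT and SGK genes fell and none rose (median log2 fold change 0.26, and 0.13 without Rb2 1). The one that fell was Sgk1, a kinase that phosphorylates FOXO3 and is itself induced by glucocorticoids, with 74.3, 26.3 and 44.1 CPM in Rb2 1, 3 and 4, against 167, 197 and 160 CPM in PBS 1, 2 and 4 (-1.86 ± 0.37 SE, edgeR adjusted p = 0.0292). It was not called without Rb2 4 (-1.81), PBS 1 or PBS 2. Of 25 partners and modifying enzymes of FOXO proteins, 1 fell: Ywhah, the 14-3-3 protein eta, at 32.6 ± 1.31 CPM with Rb2 and 63.1 ± 6.60 CPM with PBS (-0.95 ± 0.12 SE, edgeR adjusted p = 0.00526), called with any 1 library left out. The median of those 25 was 0.08, from 0.03 to 0.12 with 1 library left out and -0.004 with library size alone.

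Genes that fasting induces in metabolic tissues went both ways. Of 19 tested, 2 rose and 2 fell (1 and 3 with library size alone), where 5.33% of all genes tested rose and 5.11% fell. Of the 20 listed, 4 are FOXO targets described above, Klf15, Ddit4, Irs2 and Pdk4. The median log2 fold change was 0.16, but -0.08 without Rb2 1, -0.06 without Rb2 3, 0.08 without PBS 1 and 0.04 without PBS 4. Lpin1, a phosphatidate phosphatase, rose with Klf15 (0.65, edgeR adjusted p = 0.0467). Tsc22d3, a glucocorticoid-induced gene, had 41.4 ± 0.835 CPM with Rb2 and 66.5 ± 6.12 CPM with PBS (-0.68 ± 0.12 SE, edgeR adjusted p = 0.0122), and Plin2, a coat protein of lipid droplets, fell as well (-0.82, edgeR adjusted p = 0.0387). Without PBS 1, and likewise without PBS 2, none of these 4 was called, and 5 genes of the list were called without Rb2 4, 2 without Rb2 1, 2 without PBS 4 and 1 without Rb2 3. Of 13 genes that feeding and insulin induce, none passed in edgeR (1 had an unadjusted p under 0.05, and 1 was called in the DESeq2 Wald test), with a median of -0.34 (-0.14 without Rb2 4) and 10 below 0. Thrsp (-0.61, edgeR adjusted p = 0.0567) and Pnpla3 (-0.34, edgeR adjusted p = 0.220) had the smallest p among them, and Thrsp was called without Rb2 3 (-0.79).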

How the data were processed

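The values used are raw read counts per gene for 6 libraries, deposited by the authors in 1 table. They are whole and not normalized. Libraries were made with a stranded mRNA kit, per the labels' protocols. The submitters' processing notes name mm10 and the tools Trimmomatic, HISAT2, StringTie and Bowtie2, without their order. No source here names the counting step or its strand setting. Column names give the group but cannot be tied to single sample titles.

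All genes were tested in edgeR 4.0.16 (R 4.3.3) by the quasi-likelihood F test with TMM factors and robust dispersions, after its default filter (a count minimum of 10 and a total of at least 15), which left 16707 genes. P-values were adjusted over all of them by the Benjamini-Hochberg method, threshold 0.05. An SE is the log2 fold change over the square root of F. The script was tested on simulated data, where 38 of 98 genes changed 2-fold were called and 86 of 97 changed 4-fold. Of 16198 unchanged genes 12 were called. A gene that did not pass is therefore not shown to be unchanged. Nothing in the sources says that mice were housed or processed apart. A cage or processing difference between the groups could not be told apart from Rb2. The p-values measure only the spread between these libraries. The members and all gene lists were chosen with earlier results of these data known. Named are all members, their tested relatives, up to 8 further targets and 4 genes per other list with the smallest p past the threshold, Irs2, Klf15, Pdk4, Ddit4 and Cited2, and the 2 with the smallest p of a list with none. Alternatives were DESeq2 (1.42.0) size factors and Wald test, library size alone, limma-voom (3.58.1), no filter, a count minimum of 50, each library left out, PBS 1 and PBS 2 left out, muscle markers as covariate, an offset for GC content and length (splines with 5 degrees of freedom, values for 94.4% of genes tested), and a block on the column numbers.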

Additional observations from a re-analysis of the deposited data

How the results depend on the processing

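Of 160 values of the 10 members under the 16 alternatives, 136 kept direction and side of the threshold, 9 lost a call, 8 gained one and 7 changed sign; of 527 values of the other named genes, 397, 87, 18 and 25 did. In the DESeq2 Wald test 3309 genes, 4 members, 14 further targets, 2 relatives, 2 kinase genes, 4 partners, 7 fasting and 1 feeding genes were called. With PBS 1 and PBS 2 left out edgeR called 0 of all genes (2063 with an unadjusted p under 0.05), 0 members (3), 0 further targets (10), 0 relatives (2), 0 kinase genes (3), 0 partners (2) and 0 fasting genes (6). Library size alone left 1 member and added 1 feeding gene; a count minimum of 50 gave 3 partners and 1 feeding gene; DESeq2's factors and the offset gave 2 partners each. The muscle covariate gave 1009 genes and 2 fasting genes. Beside these, leaving out a library and the block below also moved counts by over 1.5 times.

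The column numbers are not tied to sample labels, and the numbers both groups carry, 1 and 4, did not go together (deviations correlated at -0.197 and -0.215 across genes). A replicate block on them called 96 genes, 1 member and 0 in the lists of further targets, relatives, kinases, partners and fasting genes, with fewer degrees of freedom.

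With 1 library left out, the counts ran from 303 to 2269 for all genes, 1 to 2 for members, 1 to 14 for further targets, 1 to 2 for relatives, 0 to 3 for kinases, 1 to 6 for partners, 0 to 5 for fasting and 0 to 1 for feeding genes.

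Some log2 fold changes changed sign with 1 library left out. Their ranges were -0.034 to 0.4995 for Txnip, -0.503 to 0.519 for Fbxo32, -0.22 to 1.613 for Foxo6, -0.192 to 0.284 for Arrdc2, -0.18 to 0.162 for Arrdc3, -0.0225 to 0.0557 for Fbxo25, -0.733 to 1.187 for Irs2, -0.0104 to 0.7205 for Pdk4 and -0.585 to 0.832 for Pik3r1. With PBS 1 and PBS 2 both out, Fbxo32 (0.898), Arrdc3 (0.3505), Fbxo25 (-0.027) and Trim63 (7.76) changed sign. With the muscle covariate Fbxo32 (0.0153), Arrdc3 (0.122), Fbxo25 (-0.0022), Irs2 (-0.384), Pik3r1 (-0.334) and Trim63 (0.819) did. The block did so for Fbxo32 (0.411) and Arrdc2 (-0.0647), library size alone for Arrdc2 (-0.0359) and Fbxo25 (-0.0692), limma-voom for Arrdc3 (0.009), and the offset for Fbxo30 (-0.0427) and Pnpla3 (0.0486). None of these genes passed the threshold in edgeR with all libraries. The cause was not tested. Trim63 had a count of 0 in Rb2 1 and PBS 4.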
